A study of Mus musculus with 12 samples.

Results

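The natriuretic peptide genes, with the enzymes that process their products and the receptors that bind them, were followed in the left atrium (LA) of mice with Notch activation. The members were chosen by name: *Nppa* and *Nppb* for the peptides, *Corin*, *Furin* and *Pam* for the enzymes, and *Npr1*, *Npr2* and *Npr3* for the receptors. All 8 were found among the 54658 gene names measured, and all 8 were among the 13541 genes that passed the expression filter and were tested. RNA was sequenced from the LA of 6 iNICD mice and 6 littermate controls, and each LA gave its own library. iNICD mice carried the transgenes *αMHC-rtTA* and *tetO_NICD*. The *αMHC* promoter drives the reverse tetracycline transactivator in cardiomyocytes, and the transactivator with doxycycline switches on the Notch1 intracellular domain (NICD) from *tetO_NICD*. Controls carried *αMHC-rtTA* alone. Both groups therefore had the transactivator, both were 2 to 3 months old when they were put on doxycycline chow, which they ate for 3 weeks, and neither had a washout period. Females made up 4 of the 6 controls and 3 of the 6 iNICD mice. The comparison asks how the natriuretic system of the LA responds to Notch signalling in cardiomyocytes.

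Atrial cardiomyocytes make atrial natriuretic peptide (ANP, from *Nppa*), store its precursor in granules and release it when the wall is stretched. Brain natriuretic peptide (BNP, from *Nppb*) is induced by load and stress. Corin cuts proANP at the cell surface, furin cuts proBNP inside the cell, and Pam, the amidating enzyme of peptide hormones, is a major membrane protein of atrial granules. Npr1 is the guanylyl cyclase that answers ANP and BNP with cGMP, Npr2 is the cyclase for C-type natriuretic peptide, and Npr3 clears all of these peptides from the tissue.

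Counts per library summed to between 21432632 and 27182038. *Notch1*, which shares the coding sequence of its intracellular domain with the transgene, was at 108 to 131 normalised CPM (counts scaled to a common library size) in controls. It was at 2975 to 4077 in iNICD LA, so every library matched its group label. Control 5 stood apart from the other libraries: its value on the first principal component, which held 32.6% of the variance, was -77.4, against -20.2 to 7.98 in the other controls. Some values are also given without it. The sequenced tissue carried atrial genes at high levels, and the summed level of 8 atrial cardiomyocyte markers was 37017 to 52692 TPM (counts scaled by transcript length and by the library) in controls, 45326 to 52692 without control 5, and 33318 to 45613 in iNICD LA. The summed level of 5 ventricular markers varied from mouse to mouse, from 13.2 to 772 TPM in controls and from 14.1 to 789 in iNICD LA. Most of it was *Myh7*, with means of 317 and 323 TPM and control values from 17.8 to 2155 normalised CPM. *Myl3* had means of 2.57 and 2.73 TPM and *Hey2* of 1.46 and 1.75. *Myl2* did not pass the expression filter, and *Irx4* was at 0 in every library.

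*Nppa* and *Nppb* lie beside each other on chromosome 4 (GRCm38), both on the plus strand. *Nppb* runs from 147985788 to 147987205 and *Nppa* from 148000722 to 148002079, with 13516 bases between them. Sequences before the RefSeq starts of these genes are shown because both genes fell in iNICD LA. They are RefSeq sequences of GRCm38.p6, 5′ to 3′ on the plus strand, with matches to the motifs searched in capitals. The *Nppa* sequence holds the 250 bases before the start of the gene (chr4:148000472-148000721). The *Nppb* sequence holds positions -105 to -79 from the RefSeq start (chr4:147985795-147985821), which lies 112 bases downstream of the GENCODE start of the same gene.
Nppa: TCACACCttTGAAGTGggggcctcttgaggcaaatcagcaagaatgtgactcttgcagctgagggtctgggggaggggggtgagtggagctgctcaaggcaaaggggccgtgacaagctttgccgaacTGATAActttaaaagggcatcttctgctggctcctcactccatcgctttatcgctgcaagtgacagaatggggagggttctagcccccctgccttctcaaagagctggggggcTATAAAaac
Nppb: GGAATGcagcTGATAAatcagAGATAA

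Motifs were searched on both strands in windows of 300 bases, 250 before and 50 after each RefSeq start, for 32851 windows. In the *Nppa* window a T-box element (TCACACC) stood at -250 to -244, and an NK element (TNAAGTG), the site of Nkx2-5, at -241 to -235. A GATA site (TGATAA) stood at -122 to -117 and a TATA box (TATAAA) at -9 to -4. The T-box element was found in 3.98% of all windows, the NK element in 11.5%, this GATA form in 9.05% and the TATA box in 13.6%. The *Nppb* stretch held an M-CAT element (GGAATG), the site of TEAD factors, at -105 to -100, the same GATA form at -95 to -90 and a second GATA form (AGATAA) at -84 to -79, with a TATA box after it at -31 to -26. The M-CAT element was found in 14.7% of all windows and the second GATA form in 11.2%. *Nppa* and *Nppb* were the members with the first GATA form in their windows. Of the motifs of Notch signalling, the core of Rbpj (TGGGAA), the DNA-binding partner of NICD, was found in 25.6% of windows and in that of *Npr1* alone among the members. The E box CACGTG, bound by Hes and Hey factors, was found in 7.15% of windows and in no member's. The N box CACNAG, bound by Hes factors, was found in 42.5% of windows, and those of *Nppb*, *Corin*, *Npr1* and *Npr3* were among them. A match is a run of letters, and binding was not measured.

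Of the 8 members, 2 fell in iNICD LA and none rose at an adjusted p under 0.05 (edgeR quasi-likelihood test, Benjamini-Hochberg over all tested genes). Both that fell were peptide genes. Among all tested genes 1.34% were called lower and 2.78% higher. In DESeq2 and in the exact test of edgeR the counts were also 2 and 0, and at an unadjusted p under 0.05 *Corin* was the 1 member higher. DESeq2 called 3.29% of all genes with an adjusted p lower and 4.55% higher, the exact test called 2.06% and 3.63%, and 8.09% and 9.32% had an unadjusted p under 0.05. In the atrium as a whole, fewer cells of a type and less RNA per cell cannot be told apart.

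*Nppa* was the most abundant transcript per length in every control library. Its normalised CPM in controls were 20708 at the lowest, 22751 at the median and 30718 at the highest. In iNICD LA the lowest was 1803, the median 4736 and the highest 7910. Each iNICD library was thus below each control, a separation seen in the downward direction in 1.25% of all tested genes. The mean fell from 24221 ± 3866 to 4821 ± 2060.1 (SD over 6 libraries each), with a log2 fold change of -2.33 (SE 0.28, adjusted p = 0.000339, edgeR), or 0.199 of the control level with a 95% interval of 0.131 to 0.303. A two-sided exact permutation test of the 12 libraries gave p = 0.00216, the smallest it can give. Without control 5 the log2 fold change was -2.25 (adjusted p = 0.000538, edgeR).

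The loss of *Nppa* reads was large enough to move the composition of the libraries. *Nppa* took 2.38 ± 0.25% of all counted reads in controls and 0.486 ± 0.207% in iNICD LA, means with SD over 6 libraries (p = 0.00216 by exact permutation, two-sided). By counts it ranked 2 or 3 among genes in controls and 11 to 38 in iNICD LA. By TPM, which divide by transcript length, it ranked 1 in all 6 controls and 5 to 13 in iNICD LA. The difference of -19401 normalised CPM was the largest loss of any tested gene, and the next, *Actc1* of the cardiac thin filament, was -3124 (adjusted p = 0.435, edgeR). Without control 5 these differences were -18102 and -1043, and the next to *Nppa* was *Myl4*, an atrial light chain, at -2984. By log2 fold change *Nppa* ranked 18 from the lowest among tested genes and *Nppb* 4. With library totals and normalisation factors computed without *Nppa*, its log2 fold change was -2.34.

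*Nppb* had the largest fold change of the members and the widest spread. Its normalised CPM in controls were 120 at the lowest, 376 at the median and 3293 at the highest. The highest value was control 5, and the other controls reached 1044. In iNICD LA the lowest was 25.6, the median 68.0 and the highest 242, so 5 of 6 iNICD libraries were below every control while iNICD 5 was above the lowest control. The mean fell from 915 ± 1207 to 89.2 ± 80.2 (SD over 6 libraries each), with a log2 fold change of -3.36 (SE 0.83, adjusted p = 0.0397, edgeR), or 0.0975 of the control level with a 95% interval of 0.0280 to 0.340. The two-sided exact permutation test gave p = 0.00433.

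Control 5 carried much of the mean of *Nppb*. Without it the controls averaged 439 ± 354 normalised CPM, the log2 fold change was -2.31 and the adjusted p was 0.0503 (edgeR). The call was lost in 9 of the 12 fits that left out 1 library, those without control 1, 2, 4 or 5 or without iNICD 1, 2, 3, 4 or 6. The log2 fold change stayed between -3.98 and -2.31 in all 12, and the adjusted p between 0.0252 and 0.0973. The direction was thus the same in each fit, while the call stood near the threshold.

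The spread between mice also differed between the peptide genes. Among controls the highest *Nppb* value was 27.3 times the lowest, and the SD of its log2 level was at the 99.5th percentile of all tested genes. Without control 5 these values were 8.67 times and a percentile of 99.1. Among iNICD libraries this SD was at the 98.8th percentile. *Nppa* varied 1.48-fold between controls, with an SD at the 46.0th percentile, and 4.39-fold between iNICD libraries, with an SD at the 96.5th. Without iNICD 4, the lowest, the latter range was 2.08-fold and the percentile of the SD was 87.2. These percentiles are descriptions of 6 libraries per group, with no test.

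**Figure D1:**
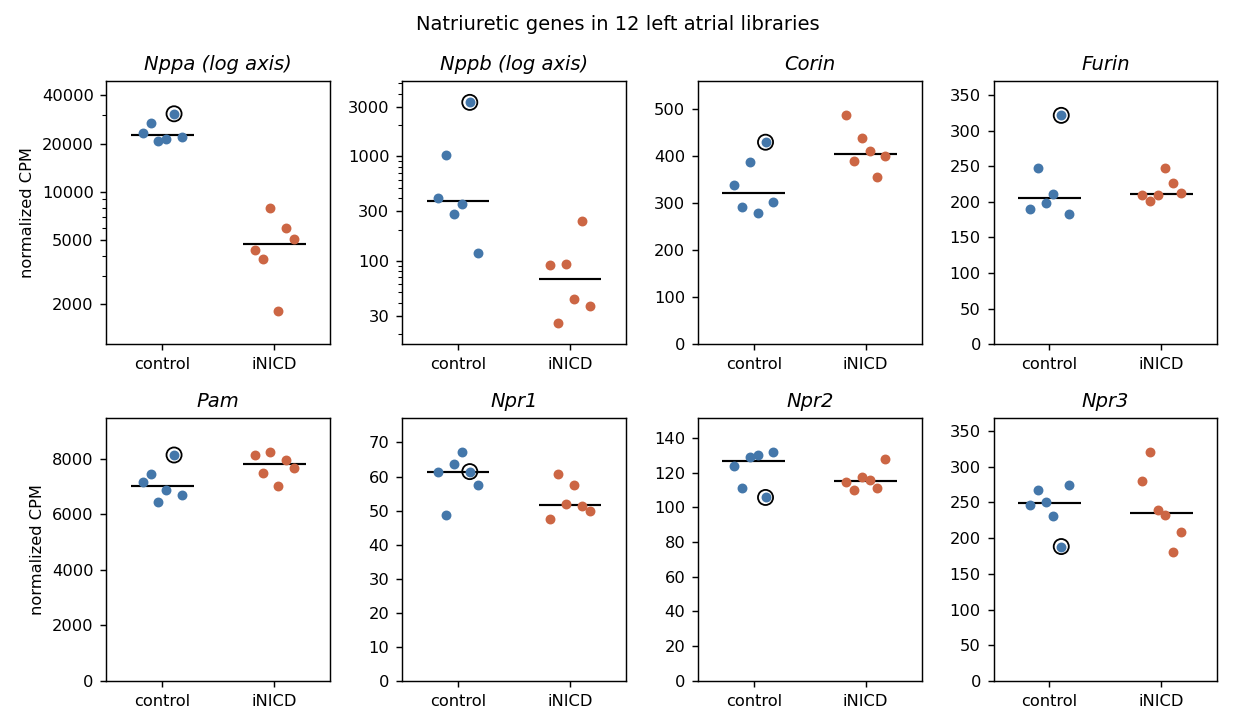
Normalised CPM of the 8 members in each of 12 LA libraries, with 1 point per mouse, a line at the median of each group and a ring around control 5; the axes of *Nppa* and *Nppb* are logarithmic and the others start at 0. *Nppa* shows no overlap between the groups (iNICD up to 7910, controls from 20708), *Nppb* overlaps through iNICD 5 at 242, and the points of the other 6 members overlap.

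C-type natriuretic peptide and osteocrin, the other ligands of these receptors, were near the limit of counting. *Nppc* had 0 to 5 counts per library and *Ostn* 0 to 3, and neither passed the filter, so a change in them was not detectable at this depth.

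An antisense gene crosses *Nppa*. *Gm13054* lies on the minus strand from 148001091 to 148004014, and 532 of its 820 exon bases are shared with exons of *Nppa*. It had 367 to 665 counts in controls and 55 to 159 in iNICD LA, with a log2 fold change of -2.32 (SE 0.24, adjusted p = 8.95e-05, edgeR). Its counts were 0.0638% to 0.122% of those of *Nppa* in every library of both groups. The LA reads are described as stranded, but the strand setting used in counting is not given in the sources used here, so how far the counts separate the pair in the overlap is not known.

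The nearest tested genes on either side of the pair did not show shifts of this size. Leaving out *Gm13054*, 9 neighbours between 147860778 and 148145699 had log2 fold changes from -0.58 to 0.13, and 2 of them fell, against 1.34% of all tested genes. These were *Plod1*, a lysyl hydroxylase of collagen, at -0.58 (SE 0.10, adjusted p = 0.00499, edgeR) and *Mfn2*, a mitochondrial fusion protein, at -0.36 (SE 0.09, adjusted p = 0.042). *Clcn6*, on the minus strand with its transcription start 38.1 kb downstream of the *Nppa* start, had a log2 fold change of 0.13 (SE 0.09, adjusted p = 0.465).

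**Figure D2:**
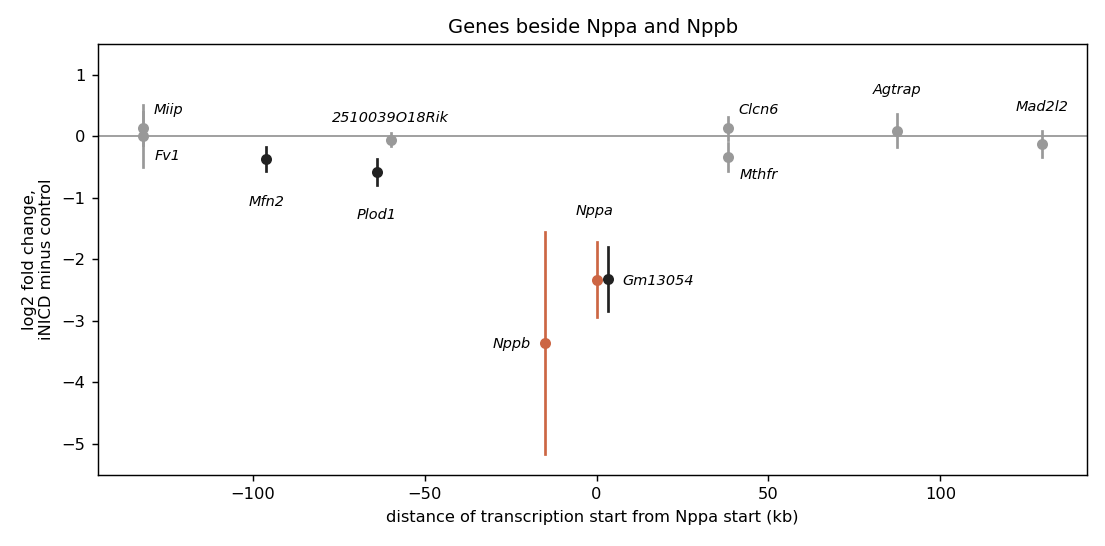
Log2 fold change (iNICD minus control, 95% interval) of *Nppa*, *Nppb*, *Gm13054* and 9 tested neighbours against the distance of each gene's transcription start, on its own strand, from the *Nppa* start in kb; orange marks *Nppa* and *Nppb*, black other called genes and grey genes not called. *Nppb* (-3.36), *Nppa* (-2.33) and *Gm13054* (-2.32) lie well below the neighbours, which run from -0.58 to 0.13.

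The enzymes that process the peptides did not pass the test. *Corin* (chromosome 5, from 72300025 to 72504473, minus strand) had 279, 321 and 430 normalised CPM as lowest, median and highest control values, and 355, 406 and 487 in iNICD LA. The groups overlapped, and 2 iNICD libraries were above every control. The means were 339 ± 59.6 and 413 ± 45.2 (SD over 6 libraries each), with a log2 fold change of 0.29 (SE 0.11, adjusted p = 0.204, edgeR), with an unadjusted p of 0.0254. The exact permutation test gave p = 0.0368, and the unadjusted 95% interval ran from 2.93% to 44.9% above control. Control 5 was the highest control for this gene, and without it the log2 fold change was 0.37 and the adjusted p was 0.0538 (edgeR).

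*Furin* (chromosome 7, from 80388585 to 80405436, minus strand) had control values of 183 at the lowest, 205 at the median and 321 at the highest, the last again in control 5. Its iNICD values were 201, 211 and 248 and lay within the range of the controls. The log2 fold change was -0.05 (SE 0.13, adjusted p = 0.874, edgeR), with an interval from -20.1% to 16.8%, and without control 5 its sign turned, at 0.08.

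*Pam* (chromosome 1, from 97795114 to 98095646, minus strand) was the most abundant enzyme of the group. It had 6444, 7014 and 8132 normalised CPM in controls and 7007, 7797 and 8238 in iNICD LA, with the highest control again control 5. The log2 fold change was 0.12 (SE 0.08, adjusted p = 0.476, edgeR), with an interval from -3.77% to 22.6%. Without control 5 it was 0.16 (unadjusted p = 0.0464, adjusted p = 0.248, edgeR). By TPM *Pam* ranked 37 to 44 in controls and 31 to 42 in iNICD LA. The partner of ANP precursor in the granule membrane was thus an abundant transcript in every library, at levels that overlapped between the groups.

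None of the 3 receptors passed the test. *Npr1* (chromosome 3, from 90450591 to 90465866, minus strand) had 48.8, 61.4 and 67.2 normalised CPM as lowest, median and highest in controls and 47.6, 51.6 and 60.7 in iNICD LA. The log2 fold change was -0.17 (SE 0.08, adjusted p = 0.309, edgeR), with an interval from -21.9% to 0.581%. *Npr2* (chromosome 4, from 43631935 to 43651244, plus strand) had 106, 126 and 132 in controls and 110, 115 and 128 in iNICD LA. Its log2 fold change was -0.07 (SE 0.07, adjusted p = 0.62, edgeR), with an interval from -14.0% to 5.22%.

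*Npr3* (chromosome 15, from 11839896 to 11907287, minus strand), the clearance receptor, had 188, 249 and 274 normalised CPM in controls, the lowest in control 5, and 181, 236 and 321 in iNICD LA. The iNICD values spread on both sides of the controls, with 2 above every control and 1 below. The log2 fold change was 0.00 (SE 0.13, adjusted p = 0.992, edgeR), and its interval from -17.8% to 22.3% bounds the size of a change in the mean. These intervals are unadjusted and do not show that the receptors were unaffected.

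**Figure D3:**
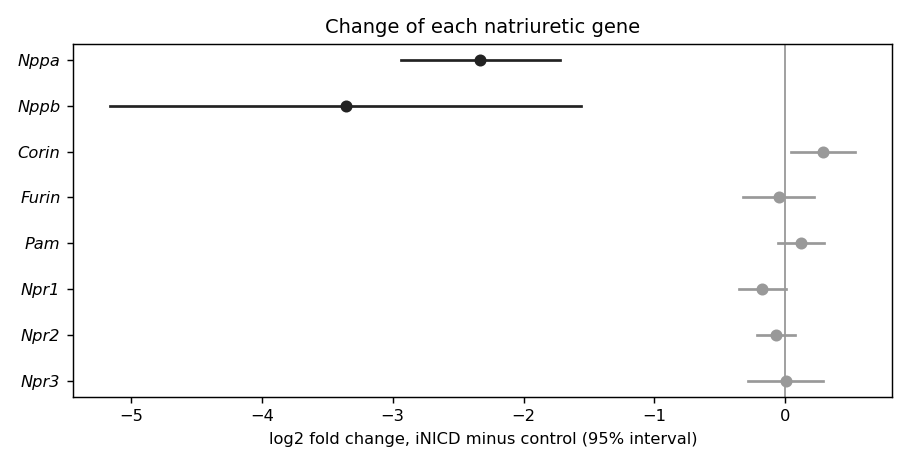
Log2 fold change (iNICD minus control) of each member with its unadjusted 95% interval, black where the adjusted p was under 0.05 and grey otherwise. *Nppa* (-2.33) and *Nppb* (-3.36) lie left of 0, and the other 6 members lie between -0.17 and 0.29.

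Compared per length, the order of the members in controls was *Nppa* (82579 TPM), *Nppb* (3213), *Pam* (1774), *Corin* (185), *Npr2* (78.0), *Npr3* (77.4), *Furin* (72.1) and *Npr1* (37.3), as means of 6 libraries. The place of *Nppb* was not settled by these means, since its TPM ran from 461 to 10636 around those of *Pam*, from 1663 to 1924, and it was above *Pam* in 2 of 6 controls. Without control 5 the means were 1729 TPM for *Nppb* and 1784 for *Pam*. *Npr2*, *Npr3* and *Furin* overlapped one another, with ranges of 57.1 to 86.1, 50.6 to 87.5 and 59.6 to 88.3. *Npr1* was below all of them in every library.

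In iNICD LA *Nppa* was still first at 17556 TPM, followed by *Pam* (2052), *Nppb* (353), *Corin* (242), *Npr3* (82.4), *Npr2* (78.3), *Furin* (74.6) and *Npr1* (35.1). *Pam* was above *Nppb* in all 6 iNICD libraries. *Nppb*, from 111 to 920 TPM, overlapped *Corin*, from 195 to 293. TPM are shares of a fixed total, so a lower *Nppa* raises the TPM of all other genes, and for this reason the groups were compared by normalised CPM.

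Ratios between members within a library do not depend on normalisation between libraries, and 4 were tested (two-sided exact permutation tests, n = 6 per group, adjusted over the 4). The ratio of *Corin* to *Nppa* TPM was 0.00173 to 0.00300 in controls and 0.00888 to 0.0365 in iNICD LA, with no overlap. On the log2 scale it was 2.75 higher (exact permutation p = 0.00216, adjusted p = 0.00866), so there was more transcript of the convertase per transcript of its substrate in each iNICD LA than in any control. *Nppa*, whose own difference was -2.45 as a mean of log2 levels, supplied most of this value.

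The ratio of *Nppa* to *Nppb* ran from 8.42 to 165 in controls, with a median of 54.0, and from 22.2 to 134 in iNICD LA, with a median of 59.2. The difference of 0.47 on the log2 scale was within the spread (exact permutation test, p = 0.535, adjusted p = 0.713), and without control 5, the lowest control, it was -0.0032. The ratio of *Npr1* to *Npr3*, of signalling to clearing receptor, differed by -0.16 (p = 0.353, adjusted p = 0.706, exact), and that of *Npr2* to *Npr3* by -0.06 (p = 0.729, exact), each with overlapping groups.

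**Figure D4:**
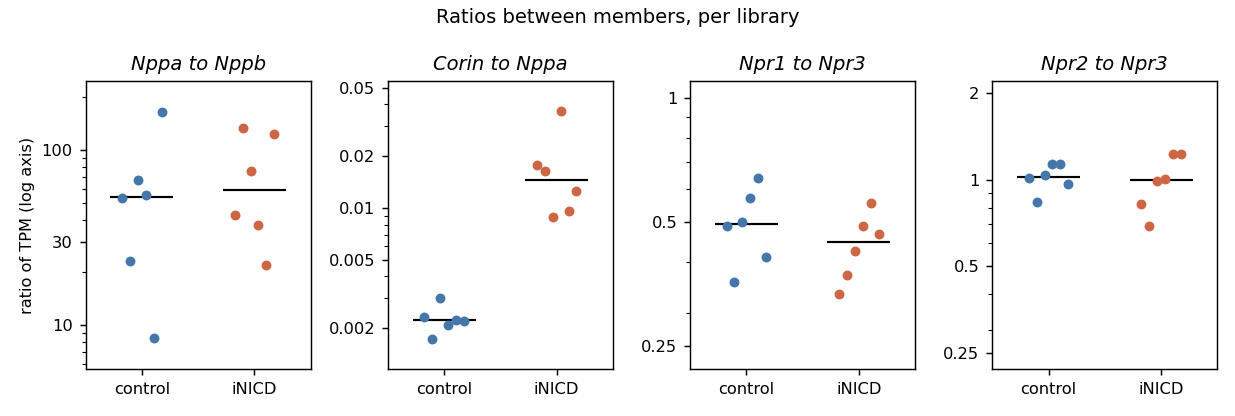
Ratios of TPM between members in each library on logarithmic axes, with 1 point per mouse and a line at the median of each group of 6. Only the ratio of *Corin* to *Nppa* separates the groups among the 4 ratios shown (0.00173 to 0.00300 in controls, 0.00888 to 0.0365 in iNICD LA).

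No member had a different response in males and females in the test of the interaction of sex and genotype (edgeR). The lowest unadjusted p among the members was 0.156, for *Corin*, and the lowest adjusted p was 0.916, which was also the lowest of all tested genes. An unadjusted p under 0.05 was found for 501 genes, none of them a member. With 2 male controls this test could show only large differences between the sexes.

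Genes that handle cGMP, the second messenger of Npr1 and Npr2, were read from a list of its synthesis, effectors and breakdown, which also holds the soluble cyclase of the nitric oxide pathway. Of its 21 genes, 16 were tested, 5 rose and 0 fell, against 2.78% of all tested genes called higher. The median log2 fold change of the list was 0.13, or 0.02 without control 5, and that of all tested genes was -0.01. In the upward direction 2.58% of all tested genes had every iNICD library above every control, and these 5 genes were so arranged. The count was also 5 without control 5, in DESeq2 and in the exact test of edgeR, and 6 genes were higher at an unadjusted p under 0.05 (9.32% of all tested genes) and 1, *Pde9a*, lower (8.09%).

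*Gucy1b1*, the β subunit of the soluble guanylyl cyclase that answers nitric oxide, rose from 54.7 ± 10.3 to 188 ± 26.7 normalised CPM (SD, n = 6 per group). Its controls lay between 45.7 and 74.2 and its iNICD libraries between 148 and 226, a log2 fold change of 1.78 (SE 0.13, adjusted p = 3.16e-06, edgeR). *Gucy1a1*, its α partner, was at 257 ± 85.0 and 304 ± 16.1, with a log2 fold change of 0.24 (adjusted p = 0.61), or 0.07 without control 5. *Prkg1*, the type I cGMP-dependent kinase, rose from 6.45 ± 1.40 to 15.8 ± 2.71, by 1.30 on the log2 scale (SE 0.15, adjusted p = 0.000258). *Mrvi1*, a substrate of that kinase at the calcium store, rose from 140 ± 78.9 to 335 ± 45.1, by 1.26 (SE 0.31, adjusted p = 0.0372).

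On the side of breakdown, *Pde1b*, a calmodulin-dependent phosphodiesterase, rose from 3.85 ± 0.391 to 19.2 ± 6.50 normalised CPM, by 2.32 on the log2 scale (SE 0.21, adjusted p = 2.87e-05, edgeR). *Pde6d*, which carries prenylated proteins and was first known as a phosphodiesterase subunit, rose by 0.35 (SE 0.09, adjusted p = 0.0348). *Pde5a*, which hydrolyses cGMP, had a log2 fold change of 0.26 (adjusted p = 0.288), and *Pde9a* one of -0.32 (adjusted p = 0.282). The summed level of the list was 283 to 529 TPM in controls, 477 to 529 without control 5, and 658 to 796 in iNICD LA. Several of these genes are also known from smooth muscle, and of 5 smooth muscle markers none was called by edgeR or DESeq2 or had an unadjusted p under 0.05, with a summed level of 309 to 488 TPM in controls and 353 to 517 in iNICD LA. The part of other cells in these values was not tested.

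**Figure D5:**
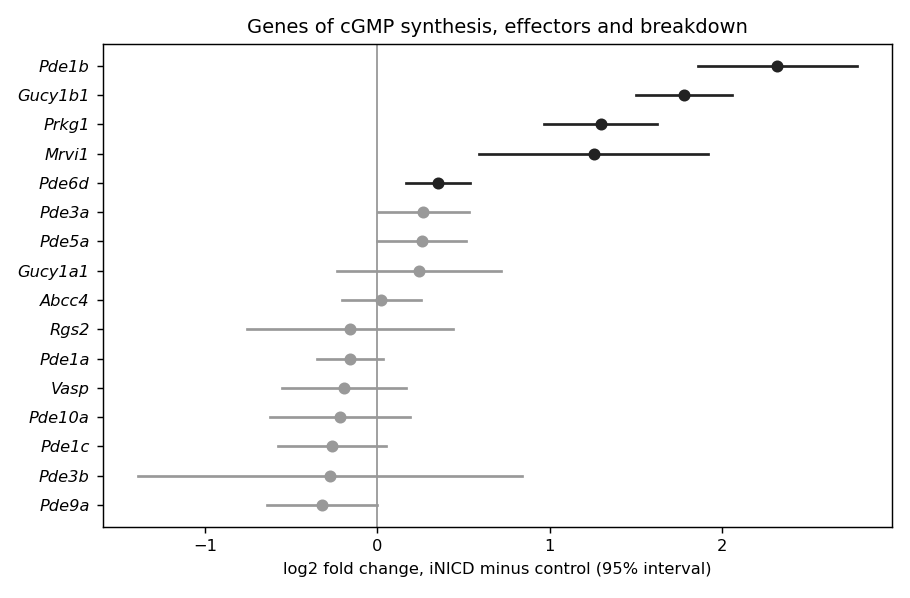
Log2 fold change (iNICD minus control) of the 16 tested genes of cGMP synthesis, effectors and breakdown with unadjusted 95% intervals, black where the adjusted p was under 0.05. *Pde1b* (2.32), *Gucy1b1* (1.78), *Prkg1* (1.30), *Mrvi1* (1.26) and *Pde6d* (0.35) are called higher, and none is called lower.

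The other steps in the life of the peptides gave no calls. Of 5 peptidases that can degrade vasoactive peptides, 0 were called, and the median log2 fold change was 0.09, or -0.04 without control 5. At an unadjusted p under 0.05 there was 1 higher, *Mme* (neprilysin), at 0.58 (SE 0.26, adjusted p = 0.282, edgeR), against 9.32% of all tested genes. Of 6 tested proprotein convertases, *Furin* included, 0 were called and 0 had an unadjusted p under 0.05, with log2 fold changes from -0.35 to 0.37. Of 10 tested genes of secretory granules and peptide amidation, *Pam* included, 0 were called. Among them 1 was lower at an unadjusted p under 0.05, *Rab27a*, at -0.23 (adjusted p = 0.243, edgeR), against 8.09% of all tested genes. DESeq2 and the exact test of edgeR called 0 genes in each of these 3 lists. *Chga* and *Chgb*, the granins of endocrine granules, did not pass the expression filter.

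Among 18 tested cardiac transcription factors known to act on the *Nppa* promoter, 1 rose and 1 fell, against 2.78% and 1.34% of all tested genes. *Hey1*, a Notch target that represses GATA-driven promoters, rose from 15.7 ± 2.66 to 53.5 ± 9.14 normalised CPM, by 1.77 on the log2 scale (SE 0.14, adjusted p = 5.58e-06, edgeR). *Tbx5*, a T-box activator of *Nppa*, fell from 428 ± 82.4 to 268 ± 24.8, by 0.67 on the log2 scale (SE 0.12, adjusted p = 0.00494). *Nkx2-5*, at 48.5 in both groups, and *Gata6*, at 109 and 116, had adjusted p-values of 1 and 0.743, and *Gata4*, at 164 and 187, one of 0.147. *Srf*, at 173 and 95.3 (adjusted p = 0.0629), and *Zfpm2*, a GATA cofactor, at 38.3 and 49.3 (adjusted p = 0.0516), were called without control 5, when 2 factors rose and 2 fell. At an unadjusted p under 0.05 there were 7 factors higher and 3 lower, against 9.32% and 8.09% of all tested genes, and DESeq2 called 4 higher and 2 lower, against 4.55% and 3.29%. The median of the list was 0.07.

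Markers of the cells that could contribute to these RNAs were set beside the peptides. Of 8 atrial cardiomyocyte markers, 3 fell: *Myl4* by 0.75, *Sln* by 0.64 and *Myl7* by 0.54 on the log2 scale (adjusted p = 0.00032, 0.00803 and 0.0367, edgeR), against 1.34% of all tested genes. DESeq2 and the exact test of edgeR each called 4 lower, against 3.29% and 2.06%, as did the main test without control 5, when *Dkk3* was at -0.80 (adjusted p = 0.021). The median of the 8 was -0.59, and *Myh6*, at 33643 and 32890 normalised CPM, had an adjusted p of 0.871. Of 10 general cardiomyocyte markers 0 were called by edgeR or DESeq2, and the median was -0.20. At an unadjusted p under 0.05, 2 of them were lower, *Tnni3* and *Ckm*, against 8.09% of all tested genes. The lowest of these markers was *Bmp10*, a gene of 8.25 and 1.84 normalised CPM, at -2.19 (adjusted p = 0.353) beside -2.33 for *Nppa*, and without control 5 the values were -2.35 and -2.25.

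Of 5 ventricular markers 3 were tested and 0 called by edgeR or DESeq2, with no unadjusted p under 0.05. Of the lists for other cells, the endothelial list had 1 of 8 called higher, *Esam*, at 1.46, against 2.78% of all tested genes. *Egfl7* was at -0.26 with an unadjusted p of 0.00862 (adjusted p = 0.116, edgeR). DESeq2 called 1 endothelial gene higher and 1 lower, against 4.55% and 3.29% of all genes with an adjusted p. The endocardial list (6 genes, *Npr3* among them), the fibroblast list (8), the epicardial list (5) and the leukocyte list (5) had 0 called by edgeR or DESeq2. At an unadjusted p under 0.05 there was 1 endocardial gene and 1 epicardial gene, both lower, against 8.09% of all tested genes. The median log2 fold changes of the endocardial, fibroblast, epicardial and leukocyte lists were -0.22, 0.12, -0.30 and 0.14 in that order, the first -0.10 without control 5. The part of a shift in cell make-up in the values of *Nppa* and *Nppb* was not tested.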

How the data were processed

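LA RNA was depleted of ribosomal RNA and sequenced as 50-base single-end reads, described as stranded, 1 library per mouse. The authors deposited raw read counts per gene name, without normalisation, and a length in bases per gene name, which for the 8 members equalled the union of their exons in GENCODE M21 (GRCm38). The paper describes counting by STAR with featureCounts and by TopHat2 with HTSeq, and the submitters' processing notes name STAR 2.4.2a and featureCounts. The notes thus name tools of the first route. Whether the counting used strand is not given in the sources used here. A gene's reads in exons shared with an antisense gene are therefore uncertain: besides *Nppa*, *Corin* shares 147 exon bases with *Gm20647*, *Furin* 118 with *Gm44851*, *Pam* 188 with *B230216N24Rik* on its own strand, *Npr1* 559 with *Gm16048*, *Npr2* 266 with *Gm12473* and *Npr3* 321 with *Gm5144*.

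Groups, sex and replicate numbers were taken from titles and descriptions. Genes above 1 CPM in at least 6 libraries were tested (13541). Groups were compared by a two-sided quasi-likelihood test (edgeR 4.0.16, R 4.3.3) after TMM scaling, and p-values were adjusted by Benjamini-Hochberg over all tested genes, with calls at 0.05. Normalised CPM are counts relative to the TMM-scaled library total, and TPM were computed from counts and the deposited lengths. The SE of a log2 fold change came from its F statistic. Exact permutation tests used log2(normalised CPM + 0.1) or log2 ratios (scipy 1.17.1). The p-values weigh the difference between the groups against the variation between these mice. No 2 libraries of a group were copies: the lowest chi-square per gene between a pair was 16.7. Depth, 21432632 to 27182038 counts, limits genes of a few counts only.

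The members, gene lists and motifs were chosen with earlier results of these data known, so their counts are descriptions and no list was tested as a whole. Named genes were the members, *Notch1*, up to 5 called genes of each list in each direction with the lowest p, the 5 tested neighbours on either side of *Nppa* and *Nppb*, and the 5 genes most correlated with each of these. Other genes were named after their values were seen. Promoter windows were found in RefSeq for all 8 members, and these have 10 windows. Alternatives were DESeq2 1.42.0, the exact test of edgeR, other normalisations and filters, sex as a covariate, replicate blocks, each sex alone and each library left out. Robust dispersions, and ranges and sums without control 5 or iNICD 4, were chosen after seeing the data.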

Additional observations from a re-analysis of the deposited data

Results flagged for a closer look

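In 26 groups of 6 libraries, each a member's level, a ratio or the share of reads on *Nppa* in controls or in iNICD LA, 4 held a library whose gap to the nearest other was over 0.625 of the group's range, the 95% critical value of Dixon's test for 6 values. Levels and ratios were taken on the linear scale here, not as log2. About 1.3 in 26 is the chance value for independent groups of normally distributed values. These groups share members and were not shown to be normal, so the 4 flags are not read as an excess over chance. *Nppb* was at 3293 normalised CPM in control 5, and the other controls lay between 120 and 1044. *Nppb* was at 242 normalised CPM in iNICD 5, and the other iNICD libraries lay between 25.6 and 94.4. The ratio of *Nppa* to *Nppb* TPM was 165 in control 6, with the other controls between 8.42 and 67.1. The ratio of *Corin* to *Nppa* TPM was 0.0365 in iNICD 4, with the others between 0.00888 and 0.0178. iNICD 4 also had the lowest *Nppa* value, 1803 normalised CPM, and the highest *Notch1* value, 4077.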

How the results depend on the processing

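Across 25 alternatives *Nppa* kept its direction, with log2 fold changes from -2.64 to -2.11, and its call in 24, males alone being the exception (-2.64, adjusted p = 0.457, edgeR, 2 controls and 3 iNICD libraries). *Nppb* kept its direction in all 25, from -4.01 to -2.31, and its call in 13. DESeq2 gave it an adjusted p of 0.000809. The count of members called lower was 1 in females alone (*Nppa*, -2.11, adjusted p = 0.00537, while *Nppb* was at -2.87 with an adjusted p of 0.0505), 0 in males alone and 1 to 2 with 1 library left out. No alternative called a member higher. Over all tested genes, 377 were called higher and 181 lower. DESeq2 called 615 and 444, females alone gave 264 and 131, males alone gave 8 and 0, and the exact test of edgeR called 279 lower. With 1 library left out the counts were 252 to 486 higher and 90 to 310 lower, the last without control 5. The cause of these shifts was not tested.

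The sign of *Npr3*, near 0 throughout, turned under DESeq2 (-0.000827), RLE size factors (-0.000816), upper-quartile factors (-0.00317), totals without *Nppa* (-0.00555), the title block (-0.0102), the description block (-0.0101) and males alone (-0.171), and ran from -0.0895 to 0.074 with 1 library left out. *Furin* ran from -0.112 to 0.0758 in those fits. The *Nppa* to *Nppb* ratio ran from -0.0032 to 0.855 and that of *Npr2* to *Npr3* from -0.126 to 0.0416, the latter at 0.138 in males alone. The ratio of *Corin* to *Nppa* was 2.62 in females alone (exact permutation test, p = 0.0571) and 2.88 in males alone (p = 0.2), and the share of reads on *Nppa* differed by -1.81 and -2.01 percentage points (the same p-values). These are the smallest p the designs allow.

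The deviations of libraries with the same title number had correlations of -0.153 to 0.372, over 0.1 in 4 of 6 pairs, and those with the same description number -0.107 to 0.372, over 0.1 in 4 of 6. Of 12 libraries, 5 correlated best with their own title number and 4 with their own description number. Since not every pair was over 0.1, the numbers were not taken to pair the mice. With the title number as a replicate block, 332 genes were called higher and 136 lower, and *Nppb* was at -2.86 (adjusted p = 0.0255). With the description number as a block 285 genes were called higher and 136 lower, and 1 member was called lower, since *Nppb* was at -2.72 (adjusted p = 0.147).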

Other observations

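The genes whose levels moved most closely with each peptide gene from mouse to mouse were found after the group means were subtracted, over 12 libraries and 9370 genes of at least 10 normalised CPM on average. For *Nppa* they were *Napepld* (Pearson r = 0.874), *Gm13054* (0.84), *Cdc42se2* (0.838), *Stx2* (0.831) and *Prune2* (0.805). For *Nppb* they were *Ppp4r2* (0.96), *Pofut2* (0.956), *Cap1* (0.955), *Krtcap2* (0.952) and *Smpx* (0.95), and without control 5 these were 0.912 to 0.929. They are the highest of 9370 values, they share the libraries and their depth, and they are descriptions. Of these genes *Gm13054* fell, *Cdc42se2* rose by 0.23 on the log2 scale (SE 0.05, adjusted p = 0.0229, edgeR), and the others were not called between the groups.

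Within groups, 8 relations were computed, 6 between members and 2 of *Nppa* with *Notch1*, each over 6 libraries, and none passed adjustment over the 8. *Nppa* and *Nppb* had Pearson r = 0.914 in controls (exact permutation p = 0.0278, adjusted 0.2) and Spearman rho = 0.829 (exact p = 0.0583). Without the 2 libraries farthest from the median of *Nppa*, r was 0.189, so the relation rests on those libraries. In iNICD LA r was 0.497 (exact p = 0.286). *Nppa* and *Notch1* had r = -0.822 in iNICD LA (exact permutation p = 0.05, adjusted 0.2), with rho = -0.657 (exact p = 0.175) and r = -0.925 without the 2 farthest libraries. In controls r was -0.68 (exact p = 0.122).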
